A study of Homo sapiens with 6 samples.

Results

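The genes described here are the 10 genes of MHC class I antigen processing measured singly on the arrays: TAP1, TAP2, TAPBP, B2M, PSMB8, PSMB9, PSMB10, ERAP1, ERAP2 and NLRC5. They were taken by symbol from the platform's annotation, which gives them 20 of the 33297 probe sets, and each gene is represented by its probe set with the highest mean over the 6 arrays, as are all 18417 genes tested. A673 and SK-N-MC, both established Ewing sarcoma lines, were transfected with a non-silencing control siRNA, with siRNA against DKK2 (siDKK2) or with siRNA against ITM2A (siITM2A), and 1 Affymetrix array was run for each line and siRNA. All arrays therefore come from transfected cells, and each target was knocked down with a single siRNA per line. The number given to the ITM2A siRNA is 7 for A673 but 1 for SK-N-MC, so the lines may not have received the same one. All values are on the log2 scale, where a difference of 1 is a 2-fold change.

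Cells show fragments of their own proteins at the surface on MHC class I molecules. The proteasome cuts the proteins, the TAP transporter carries the peptides into the endoplasmic reticulum, aminopeptidases trim them there, and tapasin helps to load them onto a heavy chain paired with beta-2-microglobulin. Interferons induce many genes of this pathway, and NLRC5 is a transactivator of class I genes. Class I expression is often low in Ewing sarcoma. The question asked of these genes was whether they follow the classical interferon-induced genes across the siRNAs and between the lines. The class I heavy chains themselves were not analysed here.

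The targeted genes checked the labels. In A673, DKK2 read 8.64 with control siRNA and 7.73 with siDKK2, and SK-N-MC gave 8.01 and 6.50. ITM2A read 8.52 with control siRNA and 5.03 with siITM2A in A673, against 9.48 and 6.10 in SK-N-MC. The correlation over all probe sets was 0.986 to 0.991 within a line and 0.959 to 0.965 between the lines. The median over the 7 measured Ewing sarcoma markers was 7.11 to 7.60 in the 6 arrays. The 5 leukocyte markers measured lay between 1.81 and 3.00 and the 4 endothelial markers between 2.29 and 2.79 in every array. Among fibroblast markers COL1A1 and COL1A2 were well above those levels in both lines and DCN read 4.09 to 5.23 in SK-N-MC. Among epithelial markers the highest value was 9.09 to 9.76.

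The promoters of these genes are shown first, because they carry the interferon-response letters that the question turns on. RefSeq windows on GRCh38.p14, from 250 bases before to 50 bases after each start, were found for 9 of the 10 genes, 13 windows in all; NLRC5 is named only. An interferon-stimulated response element (ISRE), searched on both strands as GAAA, any 2 bases, GAAA, was present in 8 of the 9 genes (88.9%). It was present in 17 of 22 interferon-induced genes with a window (77.3%) and in 4.38% of all 27305 genes with one. The 5 stretches of 100 bases below, 5′ to 3′ on the gene's own strand with the ISRE in capitals, belong to the 3 genes with an ISRE that were at least 2-fold below control with siDKK2 in A673 (TAP1, TAP2 and PSMB8) and to the peptide-loading genes TAPBP and B2M, which were not.
TAP1: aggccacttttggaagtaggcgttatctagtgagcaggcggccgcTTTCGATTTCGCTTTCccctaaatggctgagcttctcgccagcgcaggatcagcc
TAP2: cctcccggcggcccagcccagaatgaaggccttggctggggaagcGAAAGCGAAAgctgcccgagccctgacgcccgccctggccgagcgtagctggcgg
PSMB8: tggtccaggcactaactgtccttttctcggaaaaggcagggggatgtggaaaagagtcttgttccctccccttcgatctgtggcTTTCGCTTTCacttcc
TAPBP: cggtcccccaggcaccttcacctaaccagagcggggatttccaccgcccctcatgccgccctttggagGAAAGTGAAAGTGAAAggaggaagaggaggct
B2M: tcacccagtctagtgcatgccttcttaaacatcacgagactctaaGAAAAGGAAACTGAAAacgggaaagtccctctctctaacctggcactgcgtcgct

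The TAP1 stretch lies at chr6:32853784-32853883 on the minus strand, the TAP2 stretch at chr6:32838743-32838842 (minus), the PSMB8 stretch at chr6:32844036-32844135 (minus, the second of its windows), the TAPBP stretch at chr6:33314067-33314166 (minus) and the B2M stretch at chr15:44711328-44711427 (plus). In TAP1, TAPBP and B2M, 2 overlapping ISRE matches form a run of 16 bases. With the start site counted as 0, that run covers positions -134 to -119 in TAP1, -20 to -5 in TAPBP and -144 to -129 in B2M. The single match covers -58 to -49 in TAP2 and -4 to 5 in PSMB8. PSMB10, ERAP1 and ERAP2 each held 1 match as well, at -21 to -12, 2 to 11 and -30 to -21. PSMB9 held none in its own window. Its start site lies on the opposite strand, 488 bases from the first TAP1 start site and 1431 from the second. The TAP1 run, in the window of the first, lies 354 to 369 bases before the PSMB9 start site, outside the PSMB9 window.

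Other motifs were less evenly spread. A gamma-activated site, TTC, any 3 bases, GAA, was found in 2 of the 9 genes (22.2%, against 9.38% of all genes), TAP1 and PSMB8. In TAP1 it lies at -189 to -181 of the second start site, not in the window that holds the ISRE run. A κB-like site, GGG, any 2 bases, TTTCC, was found in 3 (33.3%, against 2.33%), TAP1, TAPBP and B2M. In B2M it lies at -125 to -116, next to the ISRE run. A CCAAT box, which NF-Y binds, was found in 4 (44.4%, against 39.7%). These are matches of letters and not measured binding.

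**Figure D1:**
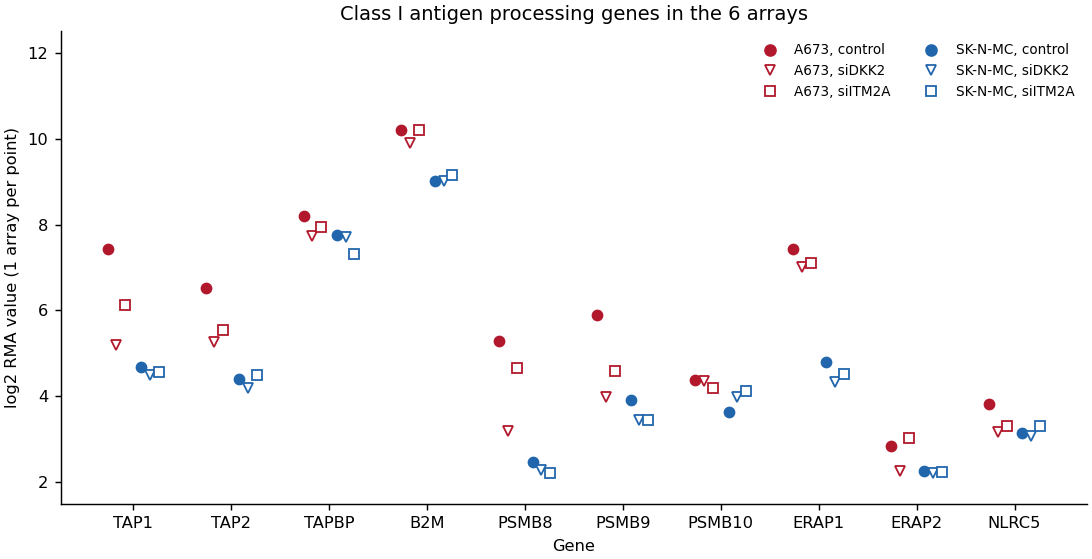
Log2 RMA value of each of the 10 genes (y axis) in the 6 arrays, 1 point per array; red is A673, blue is SK-N-MC, and the symbol gives the siRNA. TAP1 (7.42), TAP2, PSMB8, PSMB9, ERAP1 and B2M are all highest in the A673 control array. For each of them every A673 value lies above every SK-N-MC value.

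With siDKK2, TAP1, TAP2, PSMB8 and PSMB9 were 2.41-fold to 4.67-fold below control in A673 and at most 1.38-fold below control in SK-N-MC. PSMB10, an immunoproteasome gene like PSMB8 and PSMB9, was 1.02-fold below control in A673. TAP1, a subunit of the TAP transporter, read 7.42 with control siRNA, 5.20 with siDKK2 and 6.13 with siITM2A in A673, and 4.68, 4.50 and 4.57 in SK-N-MC. All 3 A673 values were above all 3 SK-N-MC values. The siDKK2 difference was -2.22 in A673 (4.67-fold lower) and -0.18 in SK-N-MC (1.14-fold lower), with a mean over the lines of -1.20 ± 0.38 (SE, limma adjusted p = 0.445). TAP2, its partner subunit, read 6.53, 5.26 and 5.54 in A673 and 4.41, 4.20 and 4.49 in SK-N-MC. With siDKK2 it differed from control by -1.27 in A673 and by -0.21 in SK-N-MC (mean -0.74 ± 0.25 SE, limma adjusted p = 0.475). The control array was the highest of the A673 arrays for both genes.

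PSMB8 and PSMB9 encode catalytic subunits that replace constitutive ones in the immunoproteasome. PSMB8 read 5.28 with control siRNA, 3.18 with siDKK2 and 4.67 with siITM2A in A673, and 2.47, 2.29 and 2.22 in SK-N-MC. It was 4.27-fold below control with siDKK2 in A673 and 1.13-fold below in SK-N-MC (mean -1.14 ± 0.38 SE, limma adjusted p = 0.468). Its SK-N-MC values lie within the range of the leukocyte markers in these arrays. PSMB9 read 5.90, 3.98 and 4.59 in A673 and 3.91, 3.45 and 3.45 in SK-N-MC. It was 3.78-fold below control with siDKK2 in A673 and 1.38-fold below in SK-N-MC (mean -1.19 ± 0.28 SE, limma adjusted p = 0.316). For PSMB8 the groups of the lines do not overlap, and for PSMB9 the lowest A673 value is just above the highest SK-N-MC value. PSMB10, the third such subunit, read 4.39, 4.36 and 4.19 in A673 and 3.63, 3.98 and 4.12 in SK-N-MC. With siDKK2 it differed from control by -0.03 in A673 and by 0.34 in SK-N-MC.

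The loading and trimming genes differed less by siRNA. TAPBP (tapasin) read 8.20, 7.72 and 7.93 in A673 and 7.75, 7.72 and 7.32 in SK-N-MC. B2M, the light chain of every class I molecule, read 10.20, 9.91 and 10.19 in A673 and 9.02, 9.01 and 9.15 in SK-N-MC. ERAP1, an aminopeptidase of the endoplasmic reticulum, read 7.42, 7.01 and 7.10 in A673 and 4.81, 4.33 and 4.51 in SK-N-MC. Its siDKK2 difference was alike in the lines, -0.41 and -0.48 (mean -0.45 ± 0.13 SE, limma adjusted p = 0.404). ERAP2, a related aminopeptidase, was low throughout, at 2.85, 2.26 and 3.02 in A673 and 2.26, 2.23 and 2.24 in SK-N-MC. These values lie within or just above the range of the leukocyte markers, so the place of ERAP2 in the counts below rests on very low values. NLRC5 read 3.82, 3.17 and 3.31 in A673 and 3.15, 3.09 and 3.30 in SK-N-MC. For NLRC5 the A673 control array alone stands above the other 5.

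No siRNA difference of the 10 genes passed limma's adjusted p of 0.05. With siDKK2, 0 of 10 passed, against 0.0109% of all genes, and 5 (TAP1, TAP2, PSMB8, PSMB9 and ERAP1) had an unadjusted p under 0.05, against 8.68%. Over the 10 genes the A673 differences had a median of -0.62 and the SK-N-MC differences one of -0.12, while over all genes these were -0.04 and -0.01. No test can be made inside a line, where each siRNA has 1 array. Nothing in the labels gives repeat cultures, so the p-values reflect how alike the responses of the lines were. In total RNA of a culture, fewer expressing cells and less RNA per cell cannot be told apart.

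The size of the differences can be read by fold within each line. In A673, 6 of the 10 genes were at least 1.5-fold below control with siDKK2 (TAP1, TAP2, PSMB8, PSMB9, ERAP2 and NLRC5), against 3.48% of all genes, and 4 were at least 2-fold below, against 0.728%. In SK-N-MC 0 of 10 passed 1.5-fold, against 1.84% of all genes, and 0 passed 2-fold, against 0.201%. Accordingly 0 of 10 passed 1.5-fold in both lines, against 0.418%. Leaving out an array changed the calls: limma called TAP1, TAP2 and PSMB9 lower when the control array of SK-N-MC was left out, and PSMB8 and PSMB9 when its siDKK2 array was, where the estimate rests mainly on A673. Leaving out the control or siDKK2 array of A673 made the differences of TAP1, TAP2, PSMB8 and PSMB9 smaller. Without the A673 control array TAP1 was at -0.40, TAP2 at -0.21, PSMB8 at -0.57 and PSMB9 at -0.61. Without the A673 siDKK2 array these were -0.48, -0.48, -0.27 and -0.67, and TAPBP and ERAP2 were each at 0.01.

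With siITM2A, TAP1 and PSMB9 were furthest below control in A673. The differences in A673 and SK-N-MC were -1.29 and -0.11 for TAP1, -0.99 and 0.08 for TAP2, -0.61 and -0.25 for PSMB8, and -1.31 and -0.46 for PSMB9. The mean over the lines was -0.70 ± 0.38 (SE) for TAP1 and -0.89 ± 0.28 (SE) for PSMB9, with limma adjusted p = 0.803 and 0.688. Over the 10 genes 0 passed the adjusted threshold, against 0.0109% of all genes, and 2 (PSMB9 and ERAP1) had an unadjusted p under 0.05, against 6.91%. In A673, 4 genes (TAP1, TAP2, PSMB8 and PSMB9) were at least 1.5-fold below control, against 1.99% of all genes, and TAP1 and PSMB9 at least 2-fold below, against 0.239%. In SK-N-MC 0 of 10 passed either fold, against 1.59% and 0.076% of all genes, and 0 passed 1.5-fold in both lines, against 0.168%. The siDKK2 and siITM2A comparisons share their control arrays. Without the A673 control array the median difference of the 10 genes with siITM2A was 0.12, against -0.33 with all arrays.

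The siRNAs were also set against each other, without the control arrays in the difference. PSMB8 was 2.80-fold lower with siDKK2 than with siITM2A in A673 and differed by 0.07 in SK-N-MC. TAP1 was 1.91-fold lower in A673, ERAP2 1.70-fold and PSMB9 1.53-fold, so that 4 genes passed 1.5-fold, against 2.57% of all genes. TAP2 differed by -0.28 in A673. limma called 0 of 10, against 0.0163% of all genes, and 0 had an unadjusted p under 0.05, against 8.32%. PSMB8 was at -1.58 when the siDKK2 array of SK-N-MC was left out. When the siDKK2 array of A673 was left out, the sign turned for PSMB8 (0.16), TAP1 (0.23) and PSMB9 (0.21).

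**Figure D2:**
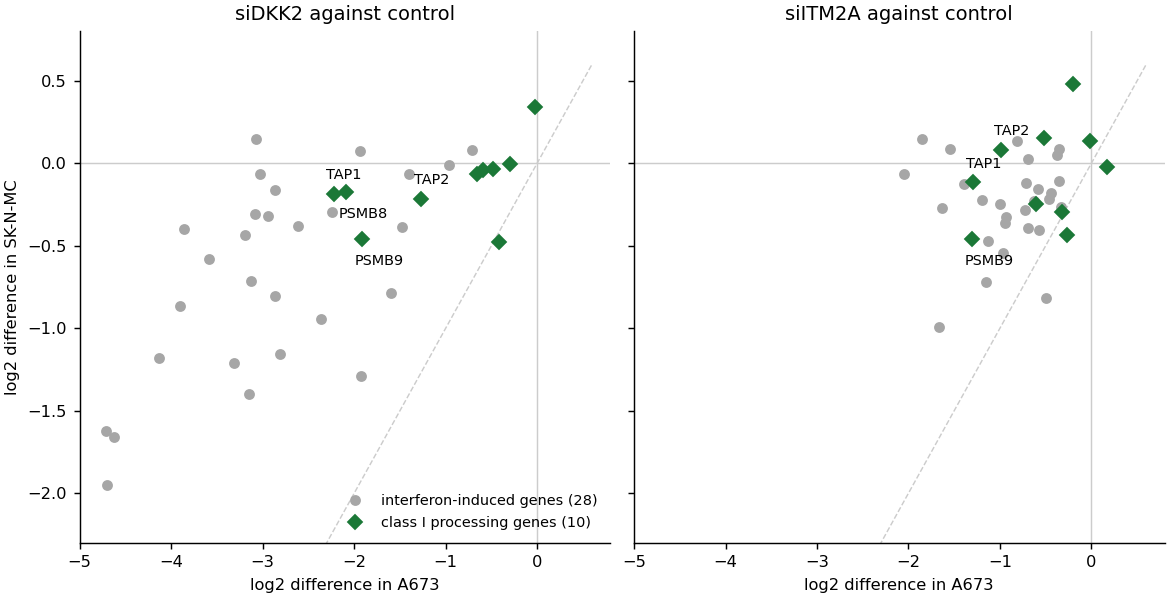
Log2 difference from control in A673 (x axis) against SK-N-MC (y axis) for siDKK2 (left) and siITM2A (right), 1 point per gene; green diamonds are the 10 class I processing genes, grey points the 28 interferon-induced genes, and the dashed line marks equal differences. With siDKK2, TAP1, PSMB8 and PSMB9 lie among the grey points at -2.22, -2.10 and -1.92 in A673, and the other members lie to the right of most of them.

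The interferon-induced genes, a list of 28 measured genes such as IFIT1, OAS1 and IFI44L, gave the scale for the question. Their median level in A673 was 6.18 with control siRNA, 3.22 with siDKK2 and 5.21 with siITM2A, and 4.21, 3.29 and 3.77 in SK-N-MC. With siDKK2 their differences had a median of -2.98 in A673 and of -0.51 in SK-N-MC, and limma called 0 of 28. An unadjusted p under 0.05 was found for 27 of them, against 8.68% of all genes. The list was chosen with earlier results of these data known, so that count only describes it. In A673, 21 of the 28 were further below control than TAP1, 21 than PSMB8, 23 than PSMB9 and 26 than TAP2. All 28 were further below control than each of TAPBP, B2M, PSMB10, ERAP1, ERAP2 and NLRC5. With siITM2A the place of the genes was different: TAP1 and PSMB9 were each further below control in A673 than 22 of the 28, and TAP2 than 18. The interferon-induced list was at least 1.5-fold below control with siDKK2 in both lines for 13 of 28 genes. For the class I genes this was 0 of 10, against 0.418% of all genes, so the count does not set them apart from all genes. PSMB8 (2.47) and ERAP2 (2.26) read within the leukocyte marker range in the SK-N-MC control array. Some of the list read within the leukocyte marker range in the SK-N-MC control array, such as MX2 (2.50), OAS2 (2.54) and PARP9 (2.90). Others, such as IFI6 (7.43), were far above it. With siDKK2 in A673, MX1 (2.85) and XAF1 (2.33) also read in that range. Differences of genes this low leave little room for a further drop.

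The order of the arrays was compared with that of the interferon-induced median, which ran control, siITM2A, siDKK2 from high to low in both lines. In A673, 8 of the 10 genes had that order, all but PSMB10 and ERAP2, against 21.7% of all genes and 28 of 28 interferon-induced genes. For B2M this order rests on a siITM2A difference from control of -0.01 in A673. In SK-N-MC 3 had it (TAP1, ERAP1 and ERAP2), against 17.4% of all genes and 19 of 28. The order was set by the interferon-induced genes themselves, so their own counts only describe that list. The SK-N-MC differences of these 3 genes ranged from -0.04 for ERAP2 to -0.48 for ERAP1 with siDKK2.

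The genes most like each of the widely varying members were sought over the 4 differences from control, by root mean square distance among genes at or above the median level. The nearest to TAP1 were the chemokine CCL5 (0.167), SP110 (0.185) and IFI27 (0.229). The nearest to PSMB8 were SAMHD1 (0.111), IFITM3 (0.141) and PARP14 (0.204). The nearest to TAP2 were SPATS2L (0.116), IFITM2 (0.212) and STEAP1 (0.213), and those to PSMB9 were STARD4 (0.267), TAP1 (0.27) and IFI27 (0.372). CCL5 differed by -2.43 with siDKK2 and -1.24 with siITM2A in A673, and by 0.07 and -0.15 in SK-N-MC. SAMHD1 differed by -2.29 and -0.54 in A673, and by -0.21 and -0.18 in SK-N-MC.

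More of the 10 genes passed the threshold between the lines than between the siRNAs. limma called 7 of the 10 genes higher in A673, against 13.8% of all genes, and 0 lower, against 14.7%. This comparison sets 3 arrays against 3, paired by siRNA and without repeat cultures in the labels. Its p-values reflect how steady the gap was over the siRNAs and cannot be set directly against those of the siRNA differences. ERAP1 showed the widest gap, 2.63 ± 0.10 (SE, 6.18-fold, limma adjusted p = 8.18e-07), and its gap was 2.62, 2.68 and 2.59 under control, siDKK2 and siITM2A. PSMB8 was higher by 2.05 ± 0.31 (adjusted p = 0.0012), TAP1 by 1.66 ± 0.31 (0.00375), TAP2 by 1.41 ± 0.20 (0.000943), PSMB9 by 1.22 ± 0.23 (0.00417) and B2M by 1.04 ± 0.11 (0.000181), all limma. ERAP2 was higher by 0.47 ± 0.15 (limma adjusted p = 0.0489), a call lost under several alternatives. TAPBP, PSMB10 and NLRC5 did not pass, at 0.36, 0.41 and 0.25 (limma adjusted p = 0.0903, 0.0643 and 0.263).

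For TAP1, TAP2, PSMB8 and PSMB9 the gap depended on the array pair compared. It was 2.74 with control siRNA, 0.70 with siDKK2 and 1.56 with siITM2A for TAP1, and 2.81, 0.89 and 2.45 for PSMB8. It was 2.11, 1.06 and 1.04 for TAP2, and 1.99, 0.53 and 1.14 for PSMB9. PSMB8 read 2.22 to 2.47 in SK-N-MC, within the leukocyte marker range, so its gap mainly tracks its A673 level. B2M kept a gap of 1.19, 0.90 and 1.04. The median gap over the 10 genes was 1.59, 0.62 and 1.04, and that of the interferon-induced genes was 2.42, -0.05 and 1.38. With siDKK2 some interferon-induced genes read near the leukocyte marker levels in both lines, where little gap can show. XAF1, for example, read 2.33 in A673 and 2.30 in SK-N-MC. Of the interferon-induced genes limma called 16 of 28 higher in A673, against 13.8% of all genes, and 0 lower, against 14.7%.

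**Figure D3:**
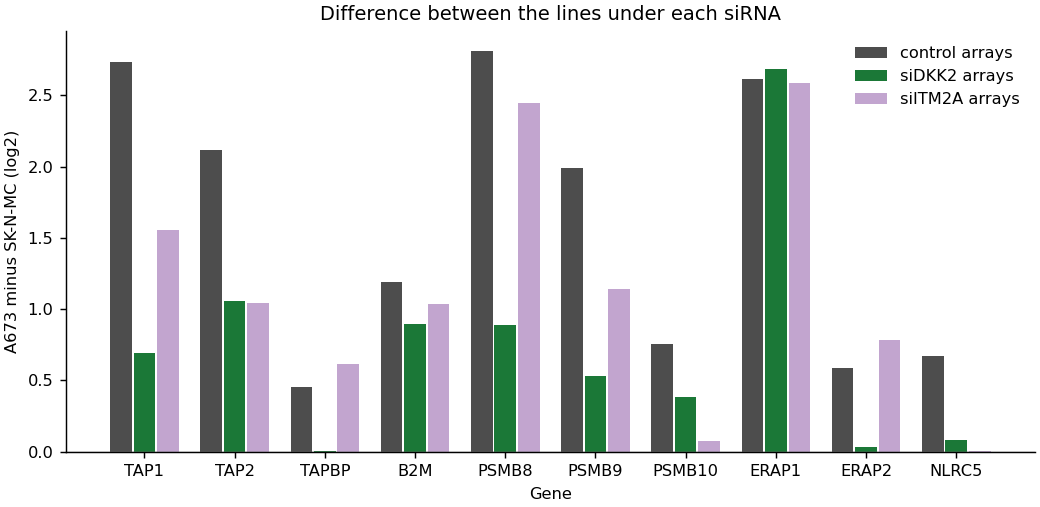
A673 minus SK-N-MC (log2, y axis) for each of the 10 genes in the control, siDKK2 and siITM2A array pairs, 1 bar per pair with no error because each is 1 array against 1. The TAP1 bar is 2.74 with control siRNA and 0.70 with siDKK2, while the ERAP1 bars are 2.62, 2.68 and 2.59.

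Other genes of the pathway were taken from lists. The constitutive catalytic subunits PSMB5, PSMB6 and PSMB7, which PSMB8, PSMB9 and PSMB10 displace in that order, read between 7.98 and 9.85, and their siDKK2 differences had medians of -0.03 (A673) and -0.12 (SK-N-MC). The 12 other 20S subunits and assembly factors had medians of -0.11 and -0.16. The PA28 activator gene PSME2 differed with siDKK2 by -0.63 in A673 and by 0.095 in SK-N-MC. With siITM2A it differed by -0.62 and 0.16. PSME1 differed by -0.66 ± 0.14 (SE, limma adjusted p = 0.623) with siITM2A over both lines, and by -0.24 ± 0.14 (SE) with siDKK2. Among the 4 chaperones and editors of loading the medians were -0.03 and -0.13, and among the 5 other peptidases -0.09 and -0.19. limma called 0 genes of these lists in any siRNA comparison.

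The partners of NLRC5 on the class I promoter, the RFX and NF-Y subunits and a CREB-family factor, also gave 0 calls by siRNA. RFX5 differed by -0.47 ± 0.13 (SE) and NFYA by 0.44 ± 0.13 (SE) with siDKK2, with limma adjusted p = 0.379 and 0.417. IRF1, an interferon-regulated activator of class I genes, read 4.49, 3.58 and 4.15 in A673 and 3.22, 3.17 and 3.33 in SK-N-MC. Between the lines limma called 6 of the 7 measured partners lower in A673, against 14.7% of all genes. They were RFX5, RFXANK, RFXAP, NFYA, NFYB and NFYC, with RFXAP at -1.08 ± 0.11 (SE, limma adjusted p = 0.000128). IRF1 and IFNGR2 were called higher in A673, at 0.84 and 0.95. The remaining lists were mixed, and their calls stand beside 13.8% of all genes called higher and 14.7% called lower. PSMB5 and PSMB6 of the constitutive subunits and CALR, TAPBPL and UGGT1 of the loading factors were called higher in A673, with none of either list lower. Of PA28, PSME1 was called higher (0.78) and PSME3 lower (-0.65). Of the peptidases, LAP3 was called higher (0.99) and NPEPPS (-0.53) and TPP2 (-0.36) lower. Of the other 20S list, POMP, PSMA1, PSMA5, PSMA6 and PSMB4 were called higher and PSMB3 lower.

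**Figure D4:**
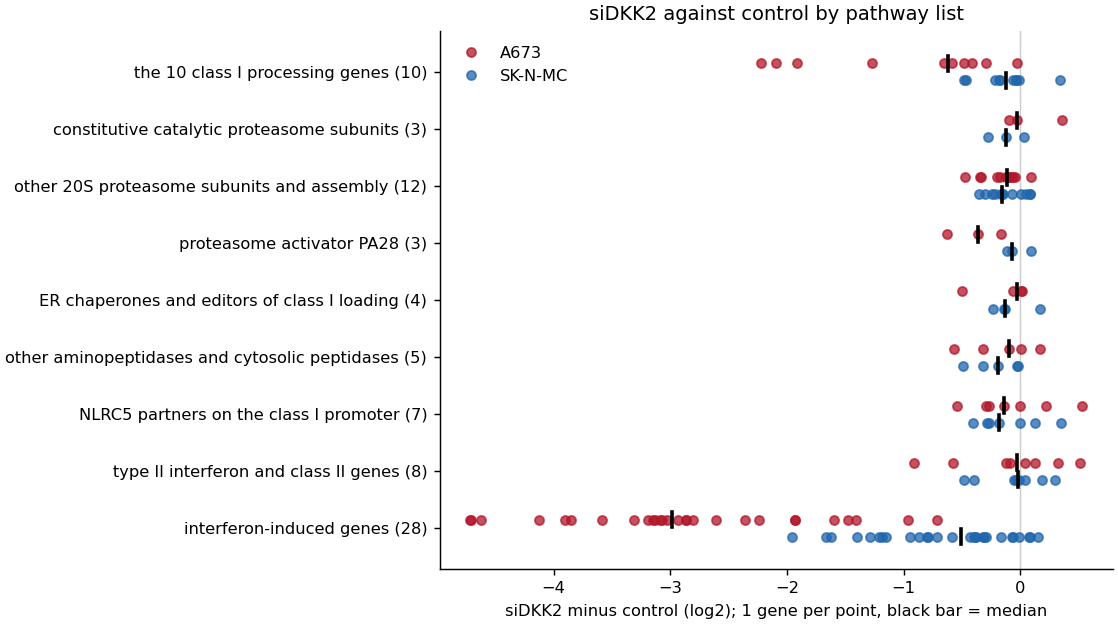
siDKK2 minus control (log2, x axis) for each gene of 9 lists, red for A673 and blue for SK-N-MC, with a black bar at the median. The 10 class I processing genes have medians of -0.62 and -0.12, the interferon-induced genes -2.98 and -0.51, and the medians of the other lists lie between -0.37 and -0.02.

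TAP2, PSMB8, TAP1 and PSMB9 lie next to one another on chromosome 6, within the class II region, so the genes measured around them were examined. This set was chosen after the values had been seen. With siDKK2 in A673, HLA-DOB on the TAP2 side differed by -0.88, HLA-DMB on the PSMB9 side by -0.51, HLA-DMA by -0.06 and BRD2 by -0.44. HLA-DQA1 differed by -0.28. The others were above control: BTNL2 by 0.31, HLA-DOA by 0.27, HLA-DQB1 by 0.13, HLA-DRB5 by 0.11 and HLA-DPA1 by 0.06. HLA-DOB read 3.82, 2.94 and 3.05 in A673 and 2.31, 2.41 and 2.30 in SK-N-MC. HLA-DRB5, HLA-DQA1, HLA-DQB1 and HLA-DPA1 read between 1.98 and 3.04 in every array, near the levels of the leukocyte markers. BRD2, which encodes a chromatin reader outside antigen presentation, read 7.89, 7.45 and 7.63 in A673.

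**Figure D5:**
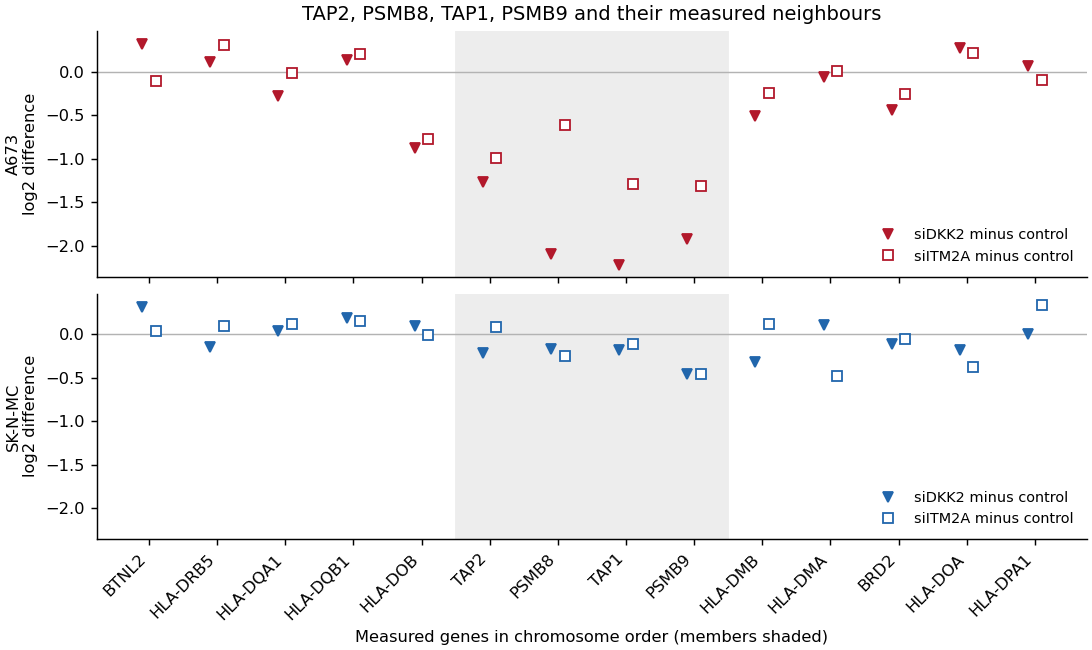
Log2 difference from control (y axis) of the measured genes in chromosome order around TAP2, PSMB8, TAP1 and PSMB9 (shaded), in A673 (top) and SK-N-MC (bottom); filled triangles are siDKK2, open squares siITM2A. In A673 the 4 shaded genes reach -1.27 to -2.22 with siDKK2 and the nearest other gene in size, HLA-DOB, is at -0.88.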

How the data were processed

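Total RNA was hybridised to 6 Affymetrix whole-transcript arrays. The deposited values are taken as log2 values per probe set; per the submitters' processing notes the authors used Affymetrix Expression Console and RMA (background correction, quantile normalization, probe summary). The software version and the build were not given in the sources used; the scale was read from the range of 1.02 to 13.4. Of 33297 probe sets 19460 had 1 symbol, giving 18417 genes. TAP1, PSMB8 and PSMB9 have 3 probe sets each with identical values. Differences were fitted over all genes with limma 3.58.1 in R 4.3.3, with siRNA and cell line as terms. The fit had 2 residual degrees of freedom, 8.28 after moderation, with Benjamini-Hochberg adjustment and a threshold of 0.05. It was tried on simulated data that held the same change in both lines, so a change in a single line was not covered. The labelled cell line pairs the arrays. Alternatives changed the block, arrays, variance trend, level filter, probe set rule and scaling. All 10 members are named. The rule for other lists picked genes past the threshold or with the widest same-direction differences. Not every gene it picked is given, and PSME2 was named outside it. Interferon-induced and marker genes called between the lines are mostly given as counts or levels. Members and lists were chosen with earlier results of these data known. Of the list genes 16 were not analysed here. The number of arrays limits the precision.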

Additional observations from a re-analysis of the deposited data

Results flagged for a closer look

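Some members lay on opposite sides of 0 in the lines under the same comparison; each line has 1 array per siRNA, and the difference between the lines was not tested. With siITM2A against control, the A673 difference minus the SK-N-MC difference was -1.07 for TAP2 (-0.99 and 0.08), -0.15 for B2M (-0.01 and 0.14), -0.68 for PSMB10 (-0.20 and 0.48), -0.66 for NLRC5 (-0.51 and 0.15) and 0.2 for ERAP2 (0.17 and -0.03). With siDKK2 against control it was -0.37 for PSMB10 (-0.03 and 0.34). With siDKK2 against siITM2A it was -1.56 for PSMB8 (-1.49 and 0.07), -0.61 for TAPBP (-0.21 and 0.40) and 0.31 for PSMB10 (0.17 and -0.14).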

How the results depend on the processing

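Leaving out 1 array at a time moved the differences of the members with siDKK2 against control. TAP1 was at -2.01, TAP2 at -1.27 and PSMB9 at -1.76 with the control array of SK-N-MC left out. PSMB8 was at -2.01 and PSMB9 at -1.71 with the siDKK2 array of SK-N-MC left out. The lone array left in an arm is assumed to vary like the others, so no siRNA call of a member is given from these fits. The median over the members, -0.40 with all arrays, was -0.58 to -0.22, nearest 0 when the control array of A673 was left out (-0.25 when its siDKK2 array was). TAP1 ranged from -2.01 to -0.40, TAP2 from -1.27 to -0.21, PSMB8 from -2.01 to -0.27 and PSMB9 from -1.76 to -0.61. For siDKK2 against siITM2A the median over the members was -0.43 to 0.00, with PSMB8 from -1.58 to 0.16. The median with siITM2A against control was -0.46 to 0.12. Over all genes the calls with siDKK2 numbered 2, and 0 to 60 under the alternatives; with siITM2A 2, and 0 to 4; for siDKK2 against siITM2A 3, and 0 to 50. Between the lines 6 to 8 members were called. ERAP2 was not called without the replicate block (0.47, limma adjusted p = 0.0884), after centring (0.055), after quantile normalization (0.051), or without a control or siITM2A array. TAPBP was called with an intensity trend (0.0466) or without a siDKK2 array, and PSMB10 without a siITM2A array. With the level filter, which left 7 members, PSMB10 had an adjusted p of 0.0418, but its mean passed the filter of 4.04 through A673 (4.31; SK-N-MC 3.91), so that value supports nothing. The fit without the replicate block changed no other member's call. The causes were not tested beyond the smaller number of arrays or genes.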
